A study of Homo sapiens with 12 samples.

Results

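Enzymes that make, convert and conjugate androgens were examined in RNA-seq data from derivatives of CWR22Rv1, an established human prostate carcinoma cell line. The genes were chosen by symbol for their known function, at a time when earlier results of these data were known. They were AKR1C1, AKR1C2, AKR1C3, HSD17B4, HSD17B11, SRD5A1, SRD5A3, UGT2B15, UGT2B17 and UGT2B11. Of these 10 genes, 9 were among the 13951 genes listed in the files, and UGT2B11 was not analysed here. The 12 libraries form 4 groups of 3 replicates, all cultured for 48 h in serum-containing medium with puromycin. Control cells carried exogenous Cas9 with no guide RNA. LV-MEIS1 cells expressed exogenous MEIS1 from a lentivirus, and whether they also carried Cas9 is not given in the sources used here. HOXB13ko cells had HOXB13 targeted by CRISPR in a Cas9-expressing line and were a pool of 6 knockout clones that were re-combined. HOXB13ko-LV-MEIS1 cells were that pool after infection with the MEIS1 lentivirus. Each group is therefore a single derived line or pool, and nothing in the labels says that the 3 replicates were derived independently, so p-values measure the spread between these samples only. The parental line came from a xenograft that had relapsed after castration, which is why enzymes supplying or removing androgens are of interest in it.

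Prostate cells make the strong androgens testosterone and dihydrotestosterone from weaker precursors with the help of ketosteroid reductases and steroid 5α-reductases. They remove them again by oxidation or reduction of the steroid and then by glucuronidation, in which UDP-glucuronosyltransferases attach glucuronic acid so that the steroid is no longer active and can be excreted. AKR1C3 reduces androstenedione to testosterone, AKR1C2 mainly reduces dihydrotestosterone to a weak androstanediol, and AKR1C1 is best known as the enzyme that inactivates progesterone. UGT2B15 and UGT2B17 are the main androgen-conjugating enzymes of the prostate, and in prostate cancer cells androgens are known to lower their expression.

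The AKR1C and UGT2B genes are clusters of recent duplicates, and their sequences decide how well short reads can tell them apart. Positions are those of GENCODE release 44 on GRCh38. AKR1C1 (ENSG00000187134, chr10:4963253-4983283, plus strand), AKR1C2 (ENSG00000151632, chr10:4987775-5018031, minus strand) and AKR1C3 (ENSG00000196139, chr10:5035354-5107686, plus strand) lie side by side. UGT2B15 (ENSG00000196620, chr4:68646597-68670652) and UGT2B17 (ENSG00000197888, chr4:68537173-68576413) lie on the minus strand of another chromosome. The coding sequences of UGT2B15 and UGT2B17 differed at 55 of 1590 positions, and 36.1% of the 50-base windows along them, the length of the study's reads, held no difference at all. Within the coding sequence, reads separate the copies only where they cover a differing base. The windows with the most differences are shown, with the 9 differing bases in capitals. They lie in coding exons at chr4:68670318-68670367 in UGT2B15 and chr4:68568184-68568233 in UGT2B17, written 5′ to 3′ along the transcript.
UGT2B15: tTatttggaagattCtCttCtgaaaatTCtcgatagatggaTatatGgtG
UGT2B17: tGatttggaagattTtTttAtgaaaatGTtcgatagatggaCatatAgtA

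AKR1C1 and AKR1C2 were closer still, with 19 differing positions in 969 coding bases and 51.6% of the windows identical. AKR1C3 was 91.4% identical to AKR1C1 and 91.0% identical to AKR1C2. In the coding window where the 3 genes differed most, which lies in exon 2 of each, 12 of 50 positions varied (capitals), at chr10:4965915-4965964, chr10:5001631-5001680 and chr10:5096411-5096460, respectively.
AKR1C1: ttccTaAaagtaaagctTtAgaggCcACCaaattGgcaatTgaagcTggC
AKR1C2: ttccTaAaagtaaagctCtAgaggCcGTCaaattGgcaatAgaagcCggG
AKR1C3: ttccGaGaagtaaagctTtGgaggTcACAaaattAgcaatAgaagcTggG

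The program that counted the reads matches words of 31 bases and divides reads that fit several transcripts. Of the 31-base words of the canonical AKR1C2 transcript, 58.2% also occur in AKR1C1, whereas 18.9% of those of AKR1C3 occur in its closest relative. UGT2B15 shares 36.1% of its words with UGT2B17, and UGT2B17 shares 31% with UGT2B15. The division of reads between AKR1C1 and AKR1C2, and between UGT2B15 and UGT2B17, is therefore uncertain, and summed values are given further on. SRD5A3 shares 39.2% of its words with an overlapping gene model (ENSG00000288695), while HSD17B4, HSD17B11 and SRD5A1 share at most 6.7% with all other genes.

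**Figure D1:**
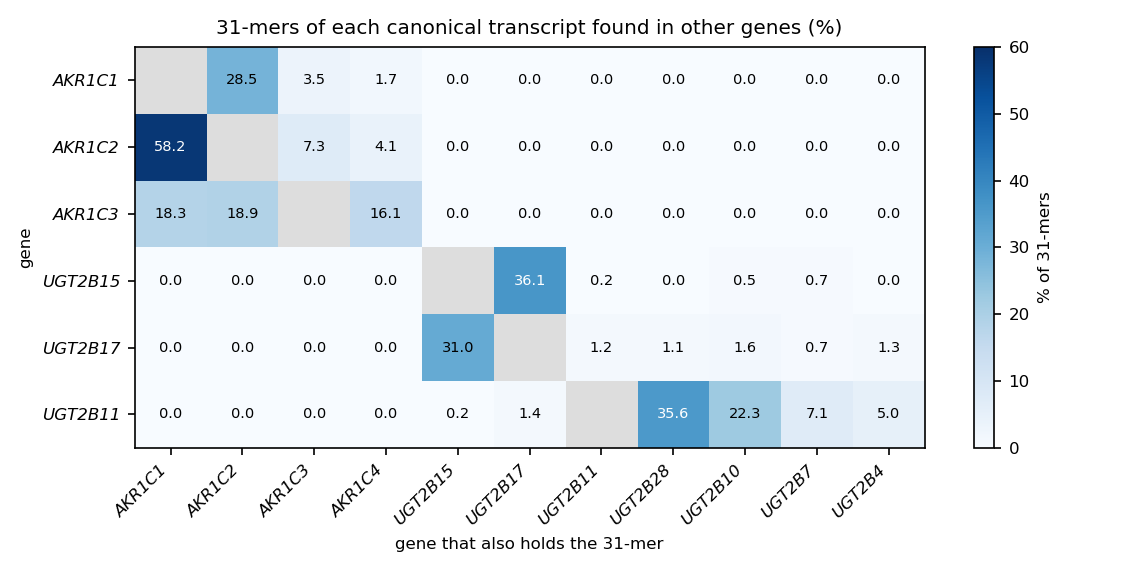
Percentage of the 31-base words of each gene's canonical transcript (rows) that also occur in a transcript of each other gene (columns). The highest value is the 58.2% of AKR1C2 words found in AKR1C1, and no word is shared between the AKR1C and the UGT2B genes.

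Promoter sequence is shown for the genes that changed most, AKR1C3 and UGT2B15, and for the neighbours AKR1C1 and AKR1C2. Each run covers the 100 bases before and the first 30 bases after the RefSeq start site (GRCh38.p14; for AKR1C3, that of its canonical transcript), written along the transcript. Capitals mark TGACAG, the core motif bound by MEIS proteins. The runs lie at chr10:5094314-5094443 (AKR1C3), chr10:4963315-4963444 (AKR1C1), chr10:5003828-5003957 (AKR1C2) and chr4:68670623-68670752 (UGT2B15).
AKR1C3: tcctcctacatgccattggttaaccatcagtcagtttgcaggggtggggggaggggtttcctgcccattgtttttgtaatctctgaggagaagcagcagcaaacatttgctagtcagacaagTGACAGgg
AKR1C1: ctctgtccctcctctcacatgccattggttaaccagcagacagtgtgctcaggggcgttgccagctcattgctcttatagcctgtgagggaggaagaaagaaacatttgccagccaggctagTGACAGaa
AKR1C2: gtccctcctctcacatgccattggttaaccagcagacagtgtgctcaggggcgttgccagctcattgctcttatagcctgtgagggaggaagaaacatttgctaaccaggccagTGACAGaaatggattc
UGT2B15: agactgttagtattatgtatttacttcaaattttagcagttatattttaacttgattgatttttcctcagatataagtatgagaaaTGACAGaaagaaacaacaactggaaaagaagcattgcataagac
The first base of the motif lies at position 23 downstream of the start in AKR1C1 and AKR1C3 and at position 15 in AKR1C2, counting the start as 1. In UGT2B15 it lies at position -14. TGACAG, or CTGTCA on the other strand, occurs in 15.8% of the 35116 RefSeq promoter windows, which run from 250 bases before to 50 bases after the start. The promoters of AKR1C1 and AKR1C2 are 93.5% identical, so these matches are not independent of one another. No TGACAG lay in the windows of HSD17B4, HSD17B11, SRD5A1 or SRD5A3, and UGT2B17 had no promoter entry. Other motifs were searched as well. The HOXB13 motifs CAATAAA and TCGTAAA lay in none of the AKR1C and UGT2B15 windows, and CAATAAA occurred in that of HSD17B4. The UGT2B15 window also held a motif of FOXA proteins and the sequence AGAACA, and that of SRD5A3 a motif of NRF2. A match is a description of the sequence only, and binding of MEIS1 was not measured in these RNA-seq data. The authors mapped MEIS1 binding by ChIP-seq in the LV-MEIS1 and HOXB13ko-LV-MEIS1 lines, and that experiment was not used here.

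The values are CPM, estimated read counts scaled to a common library size. Estimated depth ranged from 17200000 to 28700000 reads per library, 3 reads corresponded to between 0.105 and 0.175 CPM, and log2 values of replicates correlated across genes at 0.9904 to 0.9952. MEIS1 mRNA averaged 4.25 ± 0.202 CPM in Control and 47.4 ± 1.96 in LV-MEIS1 (SD, n = 3), and 3.56 ± 0.118 in HOXB13ko and 29.8 ± 0.365 in HOXB13ko-LV-MEIS1. After infection MEIS1 mRNA was thus lower in the HOXB13ko pool than in the cells whose HOXB13 was not targeted. HOXB13 mRNA did not fall in the libraries labelled HOXB13ko: it was 185, 215 and 187 CPM in Control and 347, 326 and 307 CPM in HOXB13ko. A guide that disrupts the reading frame need not lower the mRNA, so this measurement does not check the loss of the protein. The authors report that each knockout clone was checked by western blot. Directions drawn from these libraries rest on their labels and on that report. In LV-MEIS1, HOXB13 mRNA was 152, 150 and 151 CPM, below all Control libraries. The log2 difference from Control was -0.37 ± 0.07 (limma eBayes adjusted p = 0.000493), and its part in the results below was not tested. All 9 prostate luminal markers reported here were listed, with summed levels of 2420 to 2570 CPM in Control, 2230 to 2300 in LV-MEIS1, 2500 to 2610 in HOXB13ko and 2550 to 2730 in HOXB13ko-LV-MEIS1. The LV-MEIS1 libraries were thus the lowest. There 1 of the 9 was called lower by limma's treat test described below, where 2.24% of all genes were called lower. By limma's eBayes test 3 were lower and 1 was higher. Over all genes eBayes called 21.3% lower and 23.2% higher, so these counts are near the share of all genes. None of the 4 basal, 3 leukocyte and 3 endothelial markers was listed. Of 6 stroma and muscle markers, 4 were listed, without DES and MYH11, at summed levels of 31.6 to 34.7 CPM in Control, 43.6 to 50.5 in LV-MEIS1, 39.6 to 41.2 in HOXB13ko and 32.7 to 41.3 in HOXB13ko-LV-MEIS1. Of these 4, the collagen gene COL1A1 was called higher in LV-MEIS1 by treat, at 32.8 against 14.5 CPM in Control. ACTA2 and PDGFRB were lower by eBayes, at 5.62 against 8.88 and 0.266 against 1.41 CPM, and the median log2 difference of the 4 was -0.22. The part of these markers in the results below was not tested.

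Per kilobase of coding sequence, the oxidising enzymes were the most abundant in Control cells. This scale compares different genes only roughly, since reads were counted over whole transcripts. HSD17B4, a peroxisomal enzyme of fatty acid and steroid oxidation, stood at 86.8 ± 2.3 CPM per kb and HSD17B11, which oxidises androstanediol, at 78.5 ± 2.2. SRD5A3 followed at 53.9 ± 2.6 and SRD5A1 at 42.7 ± 0.37 CPM per kb. AKR1C3 stood at 20.4 ± 1.4, AKR1C2 at 6.97 ± 1.0, UGT2B15 at 4.24 ± 1.2, AKR1C1 at 3.0 ± 0.45 and UGT2B17 at 0.468 ± 0.11 (SD, n = 3 each). On this scale UGT2B15 and AKR1C1 overlapped between libraries. The order depends on the length used: per kilobase of the whole canonical transcript AKR1C3, at 16.7 ± 1.1, stood above SRD5A3, at 12.7 ± 0.6, and SRD5A1, at 4.71 ± 0.041. There UGT2B15, at 3.16 ± 0.88, stood above AKR1C1, at 0.445 ± 0.067, without overlap.

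The first comparison asks what exogenous MEIS1 does in cells with intact HOXB13. AKR1C3 and UGT2B15 mRNA rose, AKR1C1, AKR1C2, UGT2B17 and HSD17B11 were higher by smaller or less certain amounts, SRD5A1 was lower, and HSD17B4 and SRD5A3 overlapped with Control. Changes are given as the difference in log2(CPM + 0.5) with its standard error, a scale that understates the change of genes of low CPM. A gene is said to have risen or fallen where limma's treat test, against a fold change of 1.5, gave a Benjamini-Hochberg adjusted p under 0.05 over all genes. By that test 2 of 9 enzymes were called, both higher, where 3.99% of all genes were called and 1.75% were called higher. By limma's eBayes test against no change, 7 of 9 were called, 6 higher and 1 lower, where 44.5% of all genes were called and 23.2% were called higher. In the same 7 enzymes the LV-MEIS1 and Control libraries did not overlap, 6 of them higher, where 51.3% of all genes did not overlap and 26.3% were higher without overlap. In these and all other bulk values, fewer cells expressing a gene and less RNA per cell cannot be told apart.

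AKR1C3 stood at 18.9, 21.3 and 19.1 CPM in the 3 Control libraries and at 53.5, 49.5 and 47.2 CPM in LV-MEIS1. Every LV-MEIS1 library lay above every Control library. The mean rose from 19.8 ± 1.36 to 50.0 ± 3.21 CPM, a log2 change of 1.32 ± 0.07 (limma treat adjusted p = 2.57e-06). AKR1C2 was 6.03, 6.35 and 7.90 CPM in Control and 12.5, 12.1 and 13.1 CPM in LV-MEIS1. These groups did not overlap either, but the log2 difference of 0.86 ± 0.13 missed the treat threshold (adjusted p = 0.441) while differing from no change (eBayes adjusted p = 9.05e-05). AKR1C1 was 3.30, 2.44 and 3.0 CPM in Control against 5.64, 4.72 and 4.43 CPM in LV-MEIS1, again without overlap. Its log2 difference was 0.67 ± 0.15 (treat adjusted p = 1, eBayes adjusted p = 0.00236).

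UGT2B15 had the largest log2 change of the 9 enzymes in this comparison. UGT2B15 stood at 8.40, 4.72 and 7.11 CPM in Control and at 24.1, 23.8 and 19.4 CPM in LV-MEIS1. All LV-MEIS1 libraries were above all Control libraries, and the second Control library was the lowest of the 12. The log2 change was 1.69 ± 0.2 (treat adjusted p = 0.00125), or 3.23-fold. UGT2B17 had the lowest level of the 9, at 0.850, 0.847 and 0.534 CPM in Control and 2.92, 2.22 and 2.17 CPM in LV-MEIS1. The groups did not overlap, and the ratio of the mean CPM was 3.28. On the log2 scale with its pseudocount the difference was 1.24 ± 0.2 (treat adjusted p = 0.0707, eBayes adjusted p = 0.000218), and with a pseudocount of 0.1 it was 1.6 and passed the treat test (adjusted p = 0.0242, with a range of 0.0242 to 0.316 over all alternatives under that test).

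Among the reductases and dehydrogenases outside the AKR1C family the differences were smaller than 1.5-fold. HSD17B11 was 70.4, 72.7 and 68.8 CPM in Control and 97.1, 92.9 and 93.3 CPM in LV-MEIS1. The groups stood apart by a log2 difference of 0.42 ± 0.05 (treat adjusted p = 1, eBayes adjusted p = 6.01e-06). SRD5A1, which turns testosterone into dihydrotestosterone, was the one enzyme that was lower. Its level was 33.1, 33.5 and 32.9 CPM in Control and 26.0, 25.1 and 26.9 CPM in LV-MEIS1, a log2 difference of -0.35 ± 0.06 (treat adjusted p = 1, eBayes adjusted p = 0.00026). HSD17B4 averaged 191.7 ± 5.07 CPM in Control and 197.4 ± 5.32 CPM in LV-MEIS1, and the 95% interval of the log2 difference ran from -0.05 to 0.14. SRD5A3, which is named for the same reaction but is needed for the dolichol used in protein glycosylation, averaged 51.4 ± 2.44 and 50.4 ± 2 CPM, with an interval from -0.15 to 0.1.

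**Figure D2:**
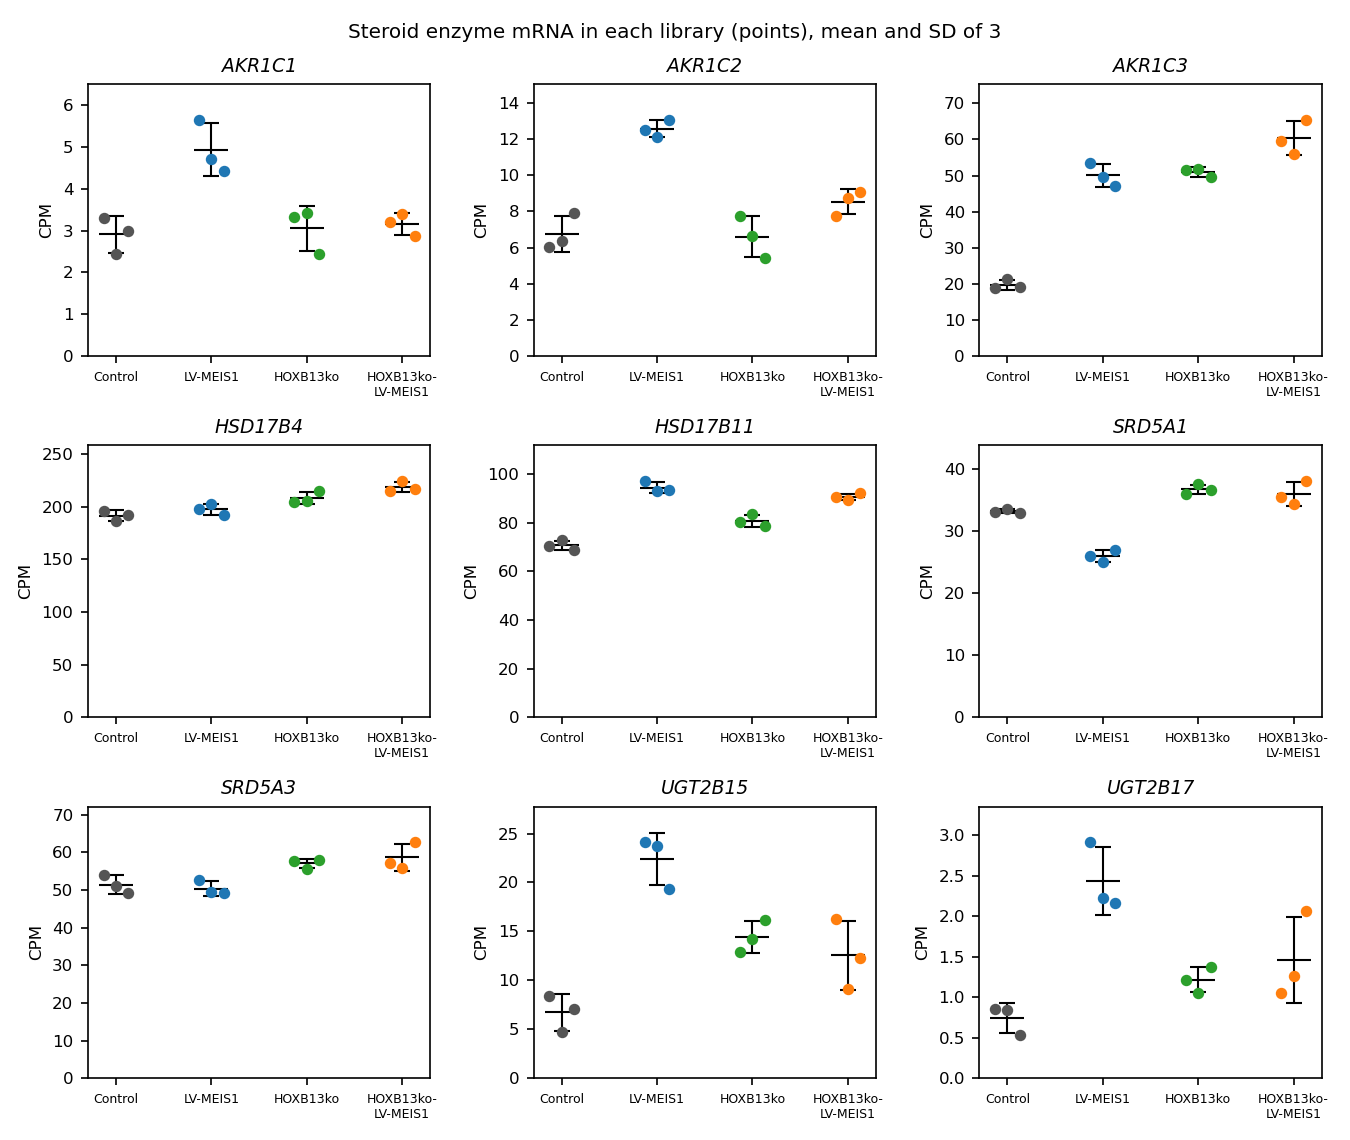
CPM of each of the 9 listed enzymes in every library (points), with the mean and SD of the 3 replicates of each group (black), each panel on its own axis from 0. AKR1C3 lies between 47.2 and 65.4 CPM in all 9 libraries outside Control, whereas UGT2B15 and UGT2B17 are highest in LV-MEIS1.

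The second comparison asks how the HOXB13ko pool differs from Control. It uses the same Control libraries as the first, so the results of both are not independent. AKR1C3 was the 1 enzyme of 9 called by the treat test, where 1.41% of all genes were called and 0.652% were called higher. It stood at 51.5, 52.0 and 49.5 CPM in HOXB13ko, every library above the 18.9 to 21.3 CPM of Control. The log2 change was 1.35 ± 0.07 (treat adjusted p = 6.78e-06). AKR1C1 and AKR1C2, its neighbours, did not stand apart from Control: AKR1C1 was 3.32, 3.41 and 2.43 CPM and AKR1C2 was 7.75, 6.65 and 5.44 CPM in HOXB13ko. Their log2 differences were 0.05 ± 0.15 (95% interval -0.27 to 0.38) and -0.03 ± 0.13 (95% interval -0.31 to 0.24).

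UGT2B15 was 12.9, 14.3 and 16.2 CPM in HOXB13ko, above all Control libraries. The log2 difference of 1.07 ± 0.2 missed the treat threshold (adjusted p = 0.606) but differed from no change (eBayes adjusted p = 0.00106). UGT2B17 was 1.22, 1.06 and 1.38 CPM, also above all Control libraries, with a log2 difference of 0.47 ± 0.2 (eBayes adjusted p = 0.0878). HSD17B11 was 80.3, 83.6 and 78.7 CPM, a log2 difference of 0.19 ± 0.05 (eBayes adjusted p = 0.00626). HSD17B4, SRD5A1 and SRD5A3 differed by 0.12 ± 0.04, 0.14 ± 0.06 and 0.15 ± 0.06, with eBayes adjusted p between 0.0508 and 0.0727. By eBayes 3 of 9 enzymes were called, all higher, where 32.9% of all genes were called and 16.5% were called higher. In 7 of 9 enzymes the groups did not overlap, all 7 higher in HOXB13ko, where 44.9% of all genes did not overlap and 21.8% were higher without overlap.

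The third comparison asks what the MEIS1 lentivirus did once HOXB13 had been targeted. None of the 9 enzymes was called by limma's treat or eBayes test, and none had an unadjusted treat p under 0.05, where treat called 0.00717% of all genes and eBayes 0.0502%. The treat test called 1 gene in all, MEIS1 itself, with 9 genes at an unadjusted p under 0.05, and eBayes called 7. The libraries of both groups did not overlap in 3 of 9 enzymes, all 3 higher with MEIS1, where 21.1% of all genes did not overlap and 10.6% were higher without overlap. AKR1C3 was 59.7, 56.1 and 65.4 CPM in HOXB13ko-LV-MEIS1, above all HOXB13ko libraries, with a log2 difference of 0.24 ± 0.07 (eBayes adjusted p = 0.171). UGT2B15 was 16.2, 9.17 and 12.3 CPM, overlapping the 12.9 to 16.2 CPM of HOXB13ko. Its log2 difference was -0.22 ± 0.2, with a 95% interval from -0.65 to 0.2. UGT2B17 was 1.06, 1.26 and 2.07 CPM and overlapped as well, with a log2 difference of 0.16 ± 0.2 (95% interval -0.28 to 0.6). AKR1C2, at 7.75, 8.76 and 9.08 CPM, lay just above HOXB13ko, with a log2 difference of 0.35 ± 0.13 (eBayes adjusted p = 0.227). AKR1C1, at 3.20, 3.40 and 2.88 CPM, overlapped with it. HSD17B11, at 90.4, 89.4 and 92.1 CPM, was above HOXB13ko by a log2 difference of 0.16 ± 0.05 (eBayes adjusted p = 0.159). SRD5A1 was 35.5, 34.4 and 38.0 CPM, overlapping with the HOXB13ko libraries at 36.0, 37.5 and 36.5 CPM. MEIS1 mRNA was lower in this pair than in LV-MEIS1, as given above, and its part in the absence of calls was not tested.

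The difference between the MEIS1 effects with intact and with targeted HOXB13 was then tested directly, as the log2 change of the first comparison minus that of the third. It was called for 2 of 9 enzymes, both in the direction of a larger change with intact HOXB13, where 2.93% of all genes were called and 1.31% were called in that direction. UGT2B15 had a difference of 1.91 ± 0.28 (treat adjusted p = 0.00747) and AKR1C3 one of 1.08 ± 0.1 (treat adjusted p = 0.00604). The pair reached this difference from different levels. AKR1C3 was already at the level of LV-MEIS1 cells in HOXB13ko, at 51.0 ± 1.29 against 50.0 ± 3.21 CPM, whereas UGT2B15 was at 14.4 ± 1.65 against 22.4 ± 2.66 CPM. UGT2B17 had a difference of 1.08 ± 0.29 that missed the treat threshold (adjusted p = 0.858, eBayes adjusted p = 0.0109). AKR1C1 and AKR1C2 had 0.62 ± 0.21 and 0.5 ± 0.18 (eBayes adjusted p = 0.0363 and 0.0439), HSD17B11 had 0.25 ± 0.07 (eBayes adjusted p = 0.00935), and SRD5A1 had -0.32 ± 0.08 (eBayes adjusted p = 0.00919). By eBayes 7 of 9 were called, 6 of them with a more positive change where HOXB13 was intact, where 34.2% of all genes were called and 18.0% in that direction. MEIS1 mRNA also differed between the infected lines, at 47.4 against 29.8 CPM, and its part in these differences was not tested.

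HOXB13ko-LV-MEIS1 was also compared with LV-MEIS1, both with exogenous MEIS1. These lines differ in the targeting of HOXB13, and they were derived separately, the first from a pool of re-combined clones. MEIS1 mRNA differed as well, at 29.8 against 47.4 CPM, a log2 difference of -0.66 ± 0.07. The parts of these differences cannot be told apart. No enzyme was called by treat or had an unadjusted treat p under 0.05, where 6.71% of all genes were called, and 8 of 9 were called by eBayes, where 50.1% of all genes were called, 24.0% higher and 26.1% lower. The 4 that were lower were UGT2B15, with a log2 difference of -0.84 ± 0.2 (eBayes adjusted p = 0.00266), UGT2B17 at -0.61 ± 0.2, AKR1C1 at -0.57 ± 0.15 and AKR1C2 at -0.53 ± 0.13. The 4 that were higher were SRD5A1, with a log2 difference of 0.46 ± 0.06 (eBayes adjusted p = 1.39e-05), AKR1C3 at 0.27 ± 0.07, SRD5A3 at 0.22 ± 0.06 and HSD17B4 at 0.15 ± 0.04. AKR1C3 thus moved in the opposite direction to AKR1C1 and AKR1C2 here. In all 9 enzymes the groups did not overlap, where 58.3% of all genes did not.

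**Figure D3:**
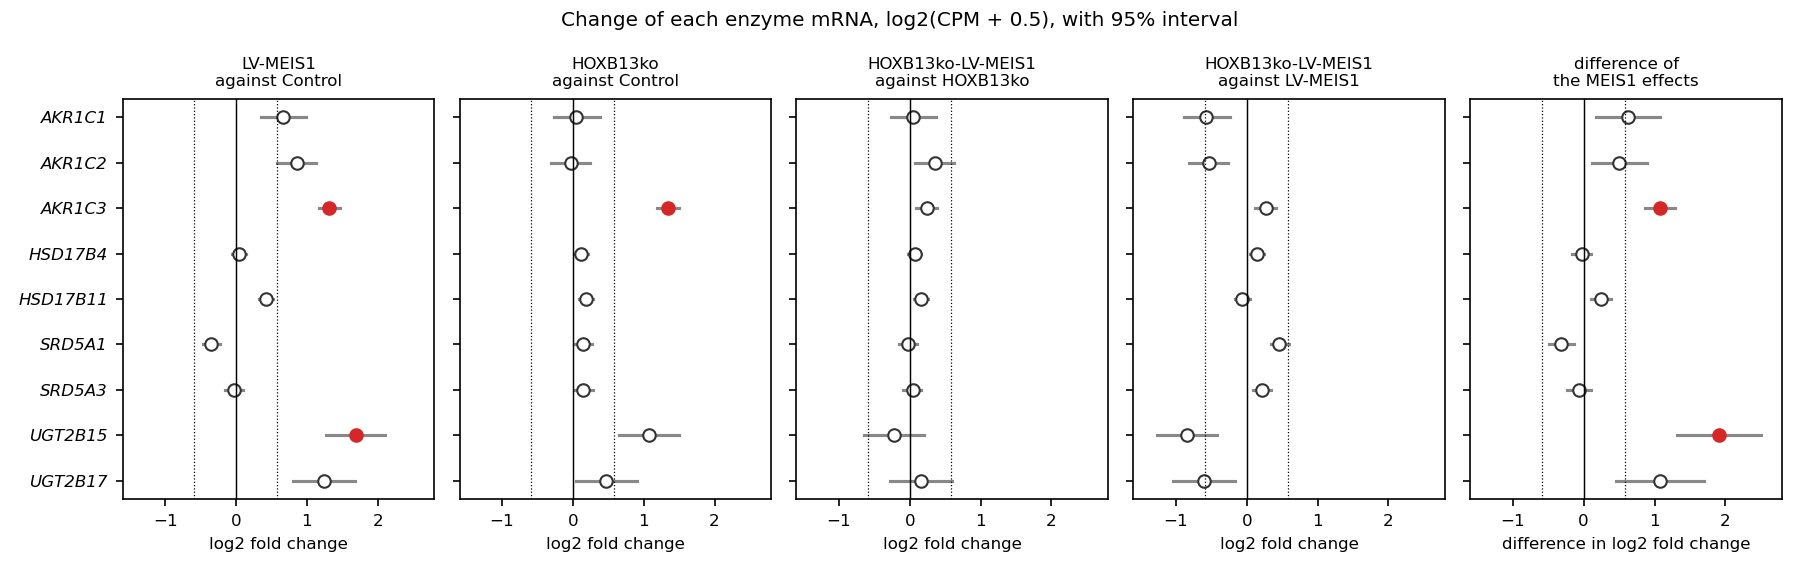
Log2 change of each enzyme on the log2(CPM + 0.5) scale in the 4 comparisons, and in the right panel the difference of the 2 MEIS1 effects, with 95% intervals. Filled red points passed limma's treat test, solid lines mark no change and dotted lines a 1.5-fold change, and 5 filled points are seen, 3 of them AKR1C3.

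Because reads are divided between copies, the copies were also summed within each library, which removes the effect of that division inside each sum. UGT2B15 and UGT2B17 together were 9.25, 5.56 and 7.64 CPM in Control and 27.1, 26.0 and 21.5 CPM in LV-MEIS1. The sum rose by 1.69 ± 0.18 on the log2 scale (limma treat adjusted p = 0.000534), and the difference of the MEIS1 effects was 1.86 ± 0.25 (treat adjusted p = 0.00476). In HOXB13ko it was 14.1, 15.3 and 17.6 CPM, a log2 difference from Control of 1.04 ± 0.18 (treat adjusted p = 0.558, eBayes adjusted p = 0.000659). UGT2B17 made up 6.1% to 15.2% of the sum, and its share differed in none of the 4 comparisons by more than the spread of the libraries (exact two-sided permutation test, p = 0.4 to 0.9, smallest possible 0.1).

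The sum of AKR1C1, AKR1C2 and AKR1C3 was 28.2, 30.1 and 30.0 CPM in Control, 71.7, 66.3 and 64.7 in LV-MEIS1, 62.5, 62.0 and 57.4 in HOXB13ko and 70.6, 68.3 and 77.3 in HOXB13ko-LV-MEIS1. It rose by 1.18 ± 0.06 in LV-MEIS1 and by 1.03 ± 0.06 in HOXB13ko against the shared Control libraries (limma treat adjusted p = 6.3e-06 and 0.000459). The sum of AKR1C1 and AKR1C2 alone differed by 0.83 ± 0.12 in LV-MEIS1 (treat adjusted p = 0.45, eBayes adjusted p = 4.83e-05) and by -0.01 ± 0.12 in HOXB13ko (eBayes adjusted p = 0.964). The share of AKR1C3 among the 3 genes was next compared. It made up 66.9%, 70.8% and 63.7% in Control and 74.7%, 74.6% and 73% in LV-MEIS1. It made up 82.3%, 83.8% and 86.3% in HOXB13ko and 84.5%, 82.2% and 84.5% in HOXB13ko-LV-MEIS1. The shares of Control, LV-MEIS1 and the HOXB13ko lines did not overlap (exact two-sided permutation test, p = 0.1 for each of LV-MEIS1 and HOXB13ko against Control, the smallest that 3 against 3 can give), while the HOXB13ko lines overlapped with each other (p = 0.9). With 3 libraries a group, none of these exact permutation tests can reach 0.05, before or after adjustment for their number.

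**Figure D4:**
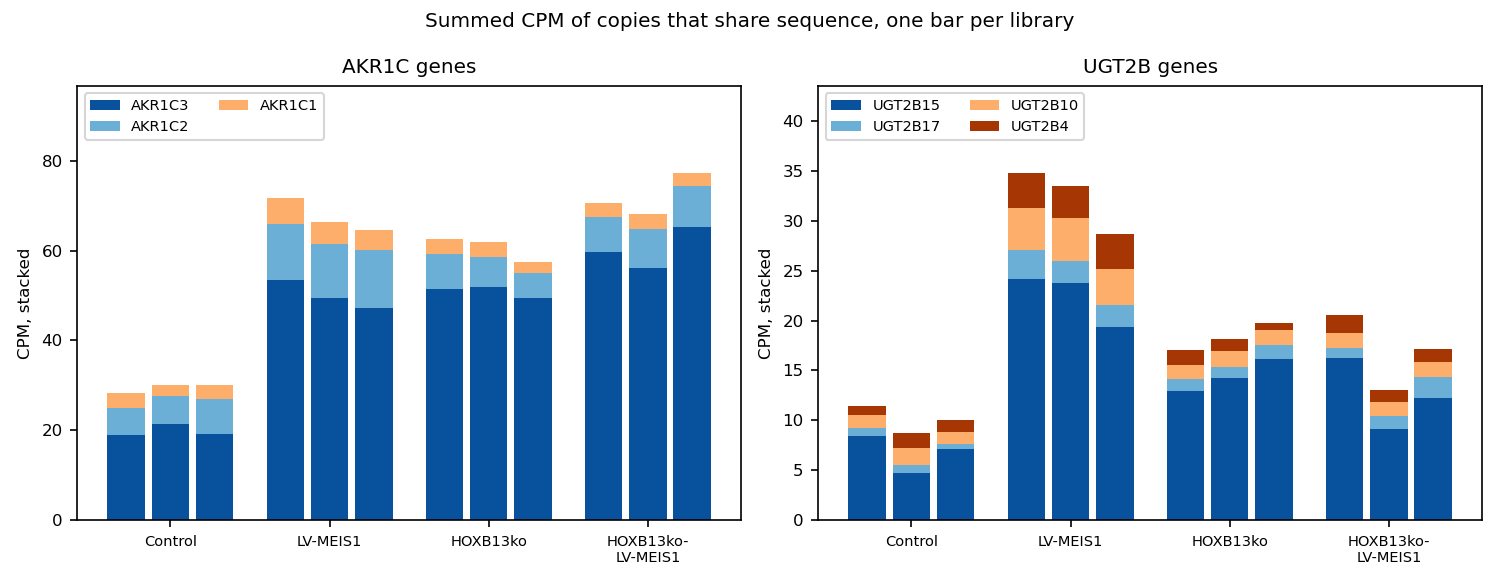
Stacked CPM of the AKR1C genes (left) and of the 4 listed UGT2B genes (right), one bar per library, from 0. The AKR1C total is about as high in both HOXB13ko lines as in LV-MEIS1, while the UGT2B total is highest in the 3 LV-MEIS1 libraries and UGT2B15 is its main part in every library.

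Other genes of androgen metabolism were taken from fixed lists. Of 18 other UGT genes and genes that supply UDP-glucuronic acid, 6 were listed. UGT2B10, a neighbour in the cluster whose enzyme mainly conjugates amines, was 1.26, 1.67 and 1.22 CPM in Control and 4.20, 4.34 and 3.63 CPM in LV-MEIS1. It rose by 1.28 ± 0.14 (treat adjusted p = 0.00448), was 0.1 ± 0.14 from Control in HOXB13ko, and was lower in HOXB13ko-LV-MEIS1 than in LV-MEIS1 by a log2 difference of -1.21 ± 0.14 (treat adjusted p = 0.00594). The difference of its MEIS1 effects, 1.31 ± 0.2, just missed the treat threshold (adjusted p = 0.0521, eBayes adjusted p = 0.000268). UGT2B4, of the same cluster, averaged 1.19 ± 0.329 CPM in Control and 3.43 ± 0.216 CPM in LV-MEIS1, a log2 difference of 1.23 ± 0.21 (treat adjusted p = 0.0867, eBayes adjusted p = 0.000283). No other gene of the list was called by treat in any comparison. The median log2 change of all 6 listed genes in LV-MEIS1, with UGT2B10 and UGT2B4 among them, was 0.56. It was 0.67 for the 9 enzymes and 0.01 for all genes. The remaining genes of the list, UGDH, UGP2, SLC35D1 and SLC35B1, differed by 0.16, 0.22, 0.9 and -0.18.

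Of 14 other genes of androgen synthesis 5 were listed, and none of them was called by treat or had an unadjusted treat p under 0.05 in any comparison, while eBayes called 3 lower in LV-MEIS1 and 2 lower in HOXB13ko, where it called 21.3% and 16.4% of all genes lower. For the difference of the MEIS1 effects it called 3 lower, where 16.2% of all genes were called lower. In HOXB13ko-LV-MEIS1 against LV-MEIS1 it called 3 higher and 1 lower, where 24.0% of all genes were called higher and 26.1% lower. The largest difference in LV-MEIS1 was that of HSD17B1, a reductase of estrone, at -0.48 ± 0.13 (eBayes adjusted p = 0.00639), and in HOXB13ko that of POR, the electron donor of the steroid hydroxylases, at -0.42 ± 0.08 (eBayes adjusted p = 0.00106). Of 13 other oxidising and reducing enzymes 10 were listed, and again none was called or had an unadjusted p under 0.05 by treat, while eBayes called 1 higher and 2 lower in LV-MEIS1, where it called 44.5% of all genes. HSD17B6, which can turn androstanediol back into dihydrotestosterone, had the largest difference in LV-MEIS1, at -0.56 ± 0.13 (eBayes adjusted p = 0.00303). Of 9 sulfation and desulfation genes 6 were listed. STS, the sulfatase that frees steroids from their sulfates, fell from 26.4, 26.3 and 23.9 CPM to 13.9, 13.8 and 12.9 CPM in LV-MEIS1, a log2 change of -0.89 ± 0.07 (treat adjusted p = 0.00659). It was 1.04 ± 0.07 higher in HOXB13ko-LV-MEIS1 than in LV-MEIS1 (treat adjusted p = 0.000111). Of 11 transporters 8 were listed, and ABCG2, an exporter of conjugates, fell by 1.49 ± 0.14 on the log2 scale in LV-MEIS1 (treat adjusted p = 0.000276).

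Of 13 genes that androgens activate in prostate cells, 12 were listed. In LV-MEIS1 4 of these 12 genes fell and none rose by the treat test, where 2.24% of all genes were called lower. They were the transporter SLC45A3, with a log2 change of -2.8 ± 0.07, then the kallikreins KLK2 and KLK4 and the chaperone FKBP5, with log2 changes of -1.4 ± 0.06, -1.32 ± 0.08 and -0.82 ± 0.05. By eBayes 6 of the 12 were lower and 1 was higher, where 21.3% of all genes were called lower and 23.2% higher. The others were not called by either test, and the median log2 change of the 12 was -0.3. In HOXB13ko against Control none of the 12 was called by treat or had an unadjusted treat p under 0.05, 4 being higher and 3 lower by eBayes, where 32.9% of all genes were called. None was called in HOXB13ko-LV-MEIS1 against HOXB13ko by either test, or had an unadjusted treat p under 0.05. In HOXB13ko-LV-MEIS1 against LV-MEIS1 4 rose and none fell, where 3.29% of all genes were called higher, led by SLC45A3 at 3.02 ± 0.07 and FKBP5 at 1.2 ± 0.05. Of 20 genes of the NRF2 stress response, to which AKR1C genes are known to belong, 18 were listed and none was called by treat in any comparison. At an unadjusted treat p under 0.05 there was 1, in HOXB13ko, and eBayes called 3 higher and 5 lower in LV-MEIS1 and 3 higher and 3 lower in HOXB13ko. These 8 and 6 of 18 genes are a share near the 44.5% and 32.9% of all genes that eBayes called. Their median log2 change was -0.03 in LV-MEIS1 and -0.07 in HOXB13ko. The largest difference was that of the cystine transporter SLC7A11, at 0.59 ± 0.11 in LV-MEIS1 and 0.81 ± 0.11 in HOXB13ko (eBayes adjusted p = 0.000657 and 0.000102).

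**Figure D5:**
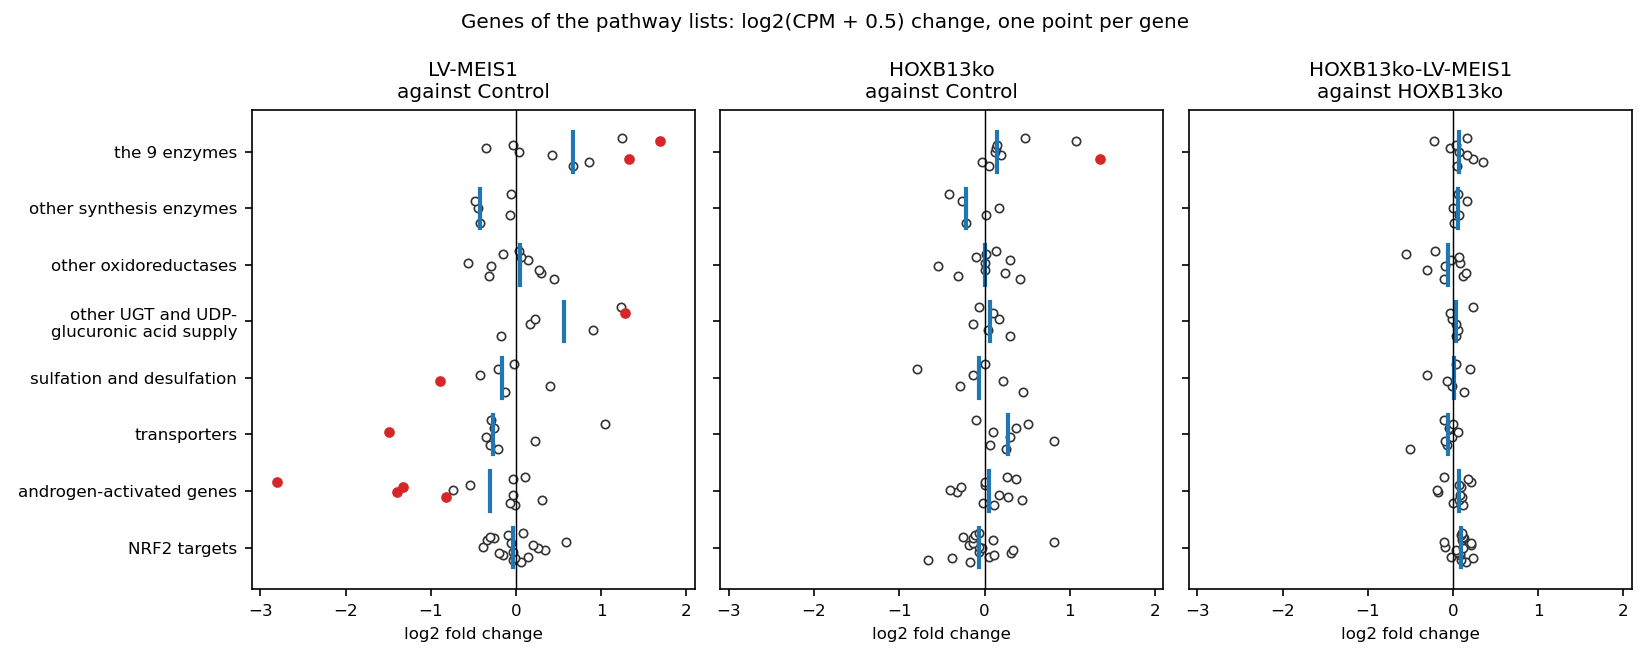
Log2 change on the log2(CPM + 0.5) scale of every listed gene (points) of the 9 enzymes and of 7 related lists in 3 comparisons, with the median of each list (blue bar) and genes called by limma's treat test in red. In LV-MEIS1 the called genes of the enzymes and of the other UGT genes lie to the right and those of the androgen-activated genes to the left, and no listed gene is called in HOXB13ko-LV-MEIS1 against HOXB13ko.

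The change of AKR1C3 and of UGT2B15 was set beside that of the genes around them, within 1 Mb and averaging 1 CPM or more. Around the AKR1C genes 8 such genes were found, and none was called by treat in any comparison, while eBayes called 5 in LV-MEIS1 and 1 in HOXB13ko, where it called 44.5% and 32.9% of all genes. Their median log2 change was -0.01 in LV-MEIS1 and -0.04 in HOXB13ko. Around UGT2B15 and UGT2B17 there were 6, and the one called in LV-MEIS1 by treat was UGT2B10. There eBayes called 5 of the 6, and their median log2 change was 0.33. Of these, CENPC, UBA6 and YTHDC1 beside the cluster differed in LV-MEIS1 by 0.26 ± 0.09, 0.4 ± 0.07 and 0.19 ± 0.05 on the log2 scale (eBayes adjusted p = 0.0259, 0.000584 and 0.01). ABCG2, which was lower in LV-MEIS1, lies within 1 Mb of HSD17B11, which was higher.

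The genes whose profile over the 12 libraries lay closest to that of AKR1C3 were sought among the 13901 genes averaging 1 CPM or more, by the root mean square difference of centred log2(CPM + 0.5). They were FAM198B (0.151), the adhesion genes DSCAM (0.156), CDH2 (0.187) and PCDHA10 (0.192), and LDLRAD4 (0.207), beside a standard deviation of 0.654 for AKR1C3 itself. CDH2, for example, averaged 5.96 CPM in Control, 15.4 in LV-MEIS1, 12.9 in HOXB13ko and 15.6 in HOXB13ko-LV-MEIS1. Closest to UGT2B15 were GOLGA8J (0.234), ZNF716 (0.24), the glucose transporter SLC2A12 (0.265), TTC39B (0.267) and the coagulation factor F5 (0.288), beside a standard deviation of 0.684. SLC2A12 averaged 18.6, 59.4, 37.3 and 38.7 CPM in the same order of groups. None of the 9 enzymes was among the 5 closest genes of the other.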

How the data were processed

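RNA-seq was analysed in 12 libraries of 4 groups taken from the sample labels. After trimming of single-end reads of 50 bases (Trimmomatic 0.38), the authors quantified transcripts of the Ensembl annotation on GRCh38.p12 by pseudoalignment (kallisto 0.43.1), collapsed the estimates to gene level (tximport) and deposited CPM normalised in edgeR 3.22.2, after filtering of genes with low counts. The library kit keeps the strand, but the authors describe default kallisto settings for single-end reads and name no strand option. The files hold 13993 rows by symbol. The 42 exact repeats were dropped, leaving 13951 genes. Sums were 940564 to 992328 CPM per library. Only 31.5% to 55.1% of values under 1 CPM lay within 0.05 reads of a whole multiple of the smallest step, so reads were not recovered and no count model was used. Depths are estimates from those steps.

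Values were analysed as log2(CPM + 0.5) by linear models (limma 3.58.1 in R 4.3.3) of all 12 libraries, in which each group had its own mean, with a trended prior and no replicate term. Genes were called by treat against a fold change of 1.5 at an adjusted p under 0.05, and eBayes was the alternative. The scripts were tested on simulated data. The enzymes, gene lists and tests were chosen with earlier results of these data known. Of each list, the called genes with the largest change (at most 4 for each comparison) were named, or the gene with the largest change where none was called, and 5 genes closest in profile to each called enzyme. COL1A1, ACTA2, PDGFRB, CENPC, UBA6 and YTHDC1, and UGT2B4, UGDH, UGP2, SLC35D1 and SLC35B1 in LV-MEIS1, were named after their values were seen. Some genes of the fixed lists are not reported here and were left out of the counts. The annotation matched 97.9% of genes by symbol. RefSeq promoters were matched for 8 of the 9 listed enzymes. The alternatives were a pseudocount of 0.1 or 1, a filter at a mean of 1 CPM, 3 scalings, a replicate block, an adjusted p under 0.01, a fit of the compared groups only and leaving out each library. Figures were drawn with matplotlib 3.10.9.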

Additional observations from a re-analysis of the deposited data

Results flagged for a closer look

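The change with exogenous MEIS1 differed between cells with intact and with targeted HOXB13 in 13 of the enzymes, pathway genes and genes of like profile named here, by limma's treat test of the difference itself (3 libraries in each of 4 groups). Over all genes 2.93% were called by that test. Genes of the lists were named for being called or changing most, and genes of like profile for resembling a called enzyme. The number 13 therefore depends on that choice and is no measure of the pathway. With 3 libraries in a group, single stray libraries were not searched for. The differences, in log2(CPM + 0.5), were 1.08 ± 0.1 for AKR1C3 (adjusted p = 0.00604) and 1.91 ± 0.28 for UGT2B15 (adjusted p = 0.00747), both with a larger rise where HOXB13 was intact.

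Among the related genes the difference was -1.56 ± 0.19 for the exporter ABCG2 (adjusted p = 0.00519). Among genes activated by androgens it was -3.01 for SLC45A3, -1.41 for KLK4, -1.22 for KLK2 and -0.92 for FKBP5. Of the genes closest in profile to AKR1C3 it was 1.31 for DSCAM, 1.26 for PCDHA10 and 1.34 for LDLRAD4, and of those closest to UGT2B15 it was 1.7 for ZNF716, 1.6 for SLC2A12 and 2.03 for TTC39B. LDLRAD4, at an adjusted p of 0.0469, missed the threshold under several alternatives, with an adjusted p of 0.00785 to 0.374 and a value of 0.98 to 1.93 over all of them under treat. DSCAM had an adjusted p of 0.0116 to 0.0574 over the alternatives and missed the threshold without Control replicate 3, LV-MEIS1 replicate 2 or HOXB13ko-LV-MEIS1 replicate 2. The stroma marker COL1A1, named after its values were seen, had a difference of 1.32 ± 0.12 (adjusted p = 0.000859). The genes of like profile were chosen on the same libraries and are not independent evidence.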

How the results depend on the processing

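The number of enzymes called stayed at 2, 1, 0, 0 and 2 in the 5 comparisons when any 1 library was left out (from 2 to 2, 1 to 1, 0 to 0, 0 to 0 and 2 to 2). With eBayes it was 7 in LV-MEIS1 against Control, 3 in HOXB13ko against Control, 8 in HOXB13ko-LV-MEIS1 against LV-MEIS1 and 7 for the difference of the MEIS1 effects, because that test asks for no minimum fold. Replicate numbers did not pair the libraries, since deviations from the group means correlated at -0.21 to 0.15 in 18 same-numbered pairs, and a replicate block left the numbers at 2, 1, 0, 0 and 2. AKR1C3 ranged from 1.27 to 1.37 in LV-MEIS1 and UGT2B15 from 1.47 to 1.86 when single libraries were left out.

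Values near 0 changed sign without being called. AKR1C2 in HOXB13ko was 0.01 after quantile scaling, and the difference of the MEIS1 effects of HSD17B4 was 0.01 after scaling to an equal sum. With single libraries left out, AKR1C1 ranged from -0.05 to 0.19 and AKR1C2 from -0.15 to 0.09 in HOXB13ko, SRD5A3 from -0.06 to 0.01 in LV-MEIS1, and in HOXB13ko-LV-MEIS1 against HOXB13ko AKR1C1 ranged from -0.08 to 0.13, SRD5A1 from -0.07 to 0, SRD5A3 from -0.01 to 0.07 and UGT2B17 from -0.05 to 0.31. The cause was not tested. Leaving out eBayes, 707 of the alternative values for the enzymes kept their direction and side of the threshold, and 1, UGT2B17 in LV-MEIS1 with a pseudocount of 0.1, newly passed it. UGT2B17, at 0.534 to 2.92 CPM, is the enzyme limited most by depth.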
